A study of Mus musculus with 6 samples.

Results

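The Slc6 genes encode carriers that use the sodium gradient, and mostly chloride, to move neurotransmitters, amino acids and related small molecules across membranes. A group of 6 such genes, taken by symbol, was followed here: Slc6a7, Slc6a8, Slc6a6, Slc6a9, Slc6a15 and Slc6a17, while the carriers of GABA were left out of the group. The files list 38 transcripts of these 6 genes, among 76938 transcripts of 25896 gene symbols. For each gene, the transcript with the most reads on average stood for it. The group was chosen by its place in the Slc6 family with genotype differences of these same libraries in view, that of Slc6a7 (0.42 on the log2 scale) first, and the transcripts were chosen by their mean counts, so the values below describe these genes and are not independent support for that difference.

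RNA was sequenced from the hippocampus of adult male C57BL/6 mice, 3 months old, in 3 WT and 3 DICER1-ifKO libraries, with RNA of 3 mice pooled in each. Both groups were homozygous for floxed Dicer1 (Dicer1 flox/flox), and both received tamoxifen (TMX) and were killed 3 weeks later. Only DICER1-ifKO mice had CaMKIIa-creERT2, a tamoxifen-activated Cre recombinase under a CaMKIIa promoter, active in excitatory neurons of the forebrain, so glia and most interneurons are not its targets; WT mice carried no Cre. Loss of Dicer1, the nuclease that releases mature microRNAs from their precursors, therefore cannot be told apart from the presence and activity of the transgene. The libraries are labelled biological replicates.

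Counts over 1 transcript per gene summed to 11832791 to 20677846 per library, the lowest in WT replicate 1, and the 3 deepest libraries included 2 of DICER1-ifKO. Levels are given as CPM, counts scaled to library size with TMM factors. Genotypes were compared over 17405 genes by the quasi-likelihood test of edgeR, and p was adjusted by the Benjamini-Hochberg method, with a threshold of 0.05. Dicer1 mRNA had 57.8 ± 3.63 CPM in WT and 59.7 ± 2.82 in DICER1-ifKO (SD, n = 3 each), and since its only listed transcript spans the whole gene, this does not check the deletion. Esr1, the mouse counterpart of the estrogen receptor gene that gives such recombinases their hormone-binding domain, had 3.26 to 4.78 CPM in WT and 10.1 to 13.7 in DICER1-ifKO.

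In the adult brain these carriers serve different solutes and cells. Slc6a7 encodes PROT, the high-affinity L-proline transporter of a subset of glutamatergic terminals, and Slc6a17 encodes NTT4, a carrier of neutral amino acids on synaptic vesicles. Slc6a8 carries creatine, Slc6a6 carries taurine, Slc6a9 (GLYT1) clears glycine mainly into glia, and Slc6a15 (B0AT2) takes up branched-chain amino acids and proline in neurons.

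Of the 6 genes, 1 passed the test, Slc6a7, which rose in DICER1-ifKO; over all genes tested 0.161% passed in either direction, 0.126% rose and 0.0345% fell. The groups did not overlap in 4 of the 6 genes, Slc6a7, Slc6a8, Slc6a6 and Slc6a17, each higher in DICER1-ifKO; 16.1% of all genes had groups that did not overlap and 7.99% did so with DICER1-ifKO higher. Log2 fold changes of DICER1-ifKO over WT were positive in 5 genes and negative in 1, against 49% positive over all genes. The unadjusted p was below 0.05 in 4 genes, all higher in DICER1-ifKO, against 5.63% of all genes in that direction. Their median was 0.12, beside 0.00 (-0.0032) over all genes. These genes were grouped with results in view, so the counts are a description of the group.

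**Figure D1:**
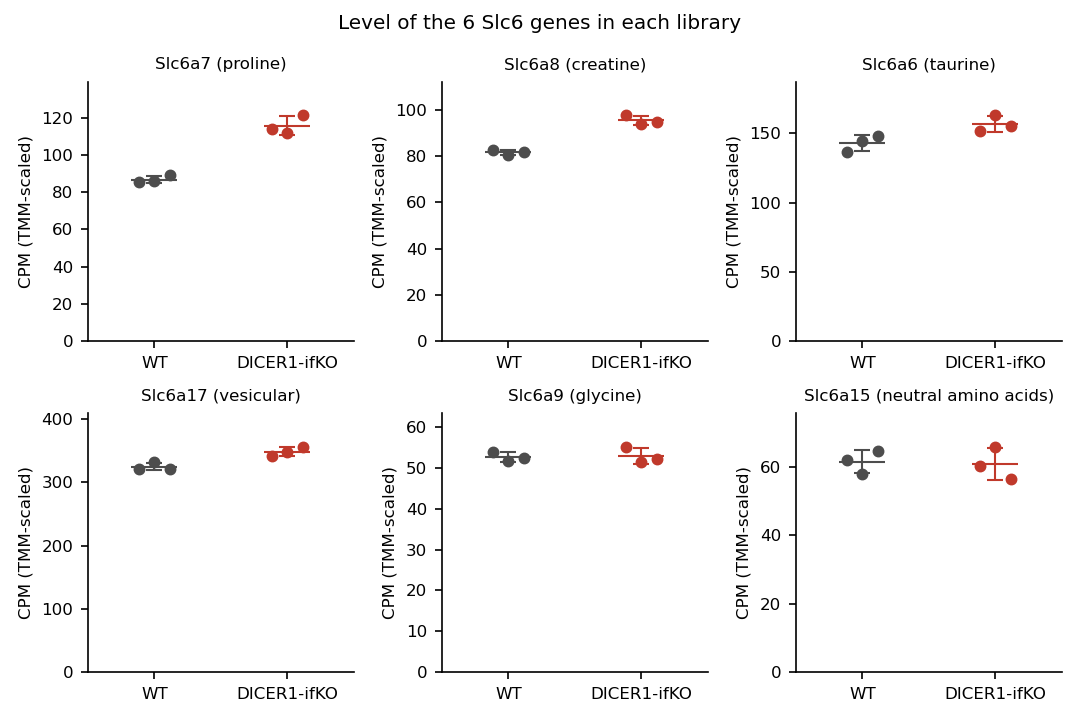
Level of each of the 6 Slc6 genes in CPM after TMM scaling (vertical axes, from 0) in 3 WT and 3 DICER1-ifKO libraries, with a point for each library and the mean ± SD drawn as lines. Slc6a7 lies at 85.6 to 89.0 CPM in WT and 112 to 121 in DICER1-ifKO, whereas the groups of Slc6a9 and Slc6a15 overlap.

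Slc6a7, the brain proline transporter, was higher in each DICER1-ifKO library than in any WT library. It lies on chromosome 18 at 60995381 to 61014199 (GRCm38, minus strand), and its only listed transcript, Slc6a7-201, has 14 exons and 3366 nt. WT replicates 1, 2 and 3 had 1005, 1365 and 1448 counts, or 85.6, 85.9 and 89.0 CPM. DICER1-ifKO replicates 1, 2 and 3 had 1760, 2014 and 2486 counts, or 114, 112 and 121 CPM. The 3 WT values lay close together, and the lowest DICER1-ifKO value was well above the highest of them. The mean moved from 86.8 ± 1.92 to 116 ± 4.98 CPM (SD, n = 3 each), a 1.33-fold rise. On the log2 scale the difference was 0.42 (SE 0.05), and edgeR's quasi-likelihood test gave a Benjamini-Hochberg adjusted p of 0.00022. A fit over 60500 transcripts, of which 0.0777% passed, gave 0.40 (SE 0.05; edgeR, adjusted p 0.0009). With any 1 library left out, the log2 fold change was 0.38 to 0.44 and passed the test each time. In bulk tissue, a change in the number of cells that express a gene cannot be told apart from a change in RNA per cell.

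Slc6a7 is the nearest listed gene downstream of Camk2a, the calcium/calmodulin-dependent kinase gene after which the Cre driver is named; their annotated bodies are 7229 bp apart. Camk2a itself had 3279, 3319 and 3393 CPM in WT and 3539, 3497 and 3713 in DICER1-ifKO. Its groups did not overlap, but its log2 fold change of 0.11 (SE 0.05) did not pass (edgeR, Benjamini-Hochberg adjusted p 0.42). Per 1000 counts of Camk2a, Slc6a7 had 26.1, 25.9 and 26.2 counts in WT and 32.3, 32.0 and 32.7 in DICER1-ifKO. The ratio of the neighbours was nearly constant within each genotype and higher in all 3 DICER1-ifKO libraries, so their counts did not change equally.

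On the far side of Slc6a7, 4663 bp away, lies Cdx1, a homeobox gene of the intestine. Its counts were 0, 1 and 0 in WT and 3, 3 and 4 in DICER1-ifKO, too few for the filter on low counts. Over all libraries that is 1 against 10 counts, a depth-adjusted ratio of 8.15 with a 95% exact binomial interval of 1.16 to 354 that covers counting error only. Arsi, a sulfatase gene on the other side of Camk2a and 76820 bp from Slc6a7, had 18, 12 and 13 counts in WT and 85, 100 and 104 in DICER1-ifKO. It rose by 2.44 (SE 0.22) on the log2 scale (edgeR, Benjamini-Hochberg adjusted p 7.53e-06).

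Of 20 other genes within 500 kb on either side of Slc6a7, 18 were tested, and Arsi alone passed. Among the 16 left without Arsi and Camk2a, 0 passed in edgeR's test or with DESeq2. DESeq2 gave an adjusted p to only 4920 genes and could not call the rest. An unadjusted p below 0.05 was found in 3 of the 16, and in 10.4% of all genes. Gm8841 lies within Pde6a on the opposite strand and had nearly the same counts in each library (1938 and 1944 in WT replicate 1). These 2 are thus not separate measurements (log2 fold change -0.15 in each), and reads there appear to be counted for both strands. The median log2 fold change of the 16 was 0.01, from -0.15 to 0.27 (Cd74, SE 0.34), with 9 positive. Only Ndst1, a heparan sulfate sulfotransferase gene, had groups that did not overlap (0.21, SE 0.05, adjusted p 0.141 in edgeR). Pdgfrb, the first tested gene beyond Cdx1, had a log2 fold change of 0.07 (SE 0.08). How much mouse sequence the CaMKIIa-creERT2 transgene holds is not given in the labels. Reads from the chromosomal copy of Slc6a7 and from any copy in a transgene cannot be told apart in these counts.

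**Figure D2:**
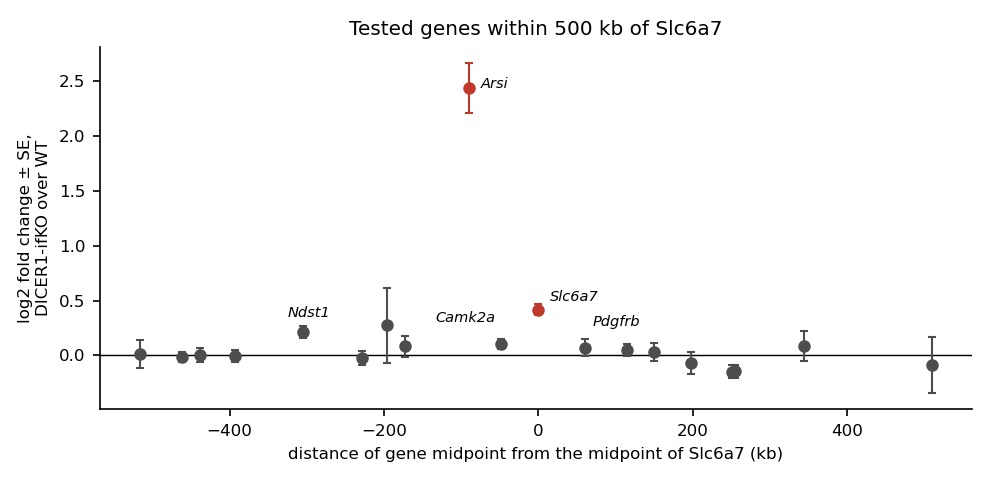
Log2 fold change ± SE of DICER1-ifKO over WT (vertical axis) for Slc6a7 and the 18 other tested genes within 500 kb of it, against the distance of each gene's midpoint from that of Slc6a7 in kb (horizontal axis). Red points passed the test. Arsi (2.44) and Slc6a7 (0.42) did, with Camk2a (0.11) between them.

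Slc6a8, the X-linked creatine transporter, was also higher in each DICER1-ifKO library, but did not pass the test. It lies on chromosome X at 73673150 to 73682502 (plus strand), with 13 exons and 3964 nt. Counts were 969, 1282 and 1327 in WT and 1504, 1695 and 1943 in DICER1-ifKO. The same libraries had 82.5, 80.7 and 81.6 CPM in WT and 97.7, 94.1 and 94.9 in DICER1-ifKO, so the groups were narrow and did not overlap. The mean was 81.6 ± 0.897 in WT and 95.5 ± 1.87 CPM in DICER1-ifKO (SD, n = 3 each), a ratio of 1.17. The log2 fold change of 0.23 (SE 0.05) missed the threshold (edgeR, Benjamini-Hochberg adjusted p 0.0682). It did pass with DESeq2 (adjusted p 0.0195), which called 1.12% of the 4920 genes it gave an adjusted p. It also passed in edgeR with no filter on low counts (adjusted p 0.0164), where 0.673% of 22441 genes were called. The call for Slc6a8 therefore depended on the test and filter, while its size, 0.19 to 0.24 over all alternatives, moved little.

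All 13 listed transcripts of Slc6a8 had positive log2 fold changes, from 0.13 to 0.44, and in 12 of them the groups did not overlap; among all transcripts 15.2% had groups that did not overlap, 7.58% with DICER1-ifKO higher. These transcripts share exons and reads, so they are not separate measurements. None passed in the fit over transcripts by edgeR or by DESeq2 (lowest adjusted p in edgeR 0.14), and 12 had an unadjusted p below 0.05. The highest values came from a pair of short models of the 5′ part of the gene, Slc6a8-011 (0.44, SE 0.10) and Slc6a8-012 (0.43, SE 0.11). Slc6a8-011 held 13.1%, 12.1% and 13.0% of the count of the representative transcript in WT and 14.5%, 14.5% and 15.4% in DICER1-ifKO. The share of reads in that model was thus a little larger in each DICER1-ifKO library; the difference in share was not tested.

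Slc6a6, the taurine transporter, had DICER1-ifKO values just above those of WT. It lies on chromosome 6 at 91684067 to 91759063 (plus strand), with 15 exons and 6186 nt. Counts were 1602, 2301 and 2408 in WT and 2339, 2937 and 3187 in DICER1-ifKO, or 136, 145 and 148 against 152, 163 and 156 CPM. The mean was 143 ± 6.04 in WT and 157 ± 5.68 CPM in DICER1-ifKO (SD, n = 3 each). The highest WT and lowest DICER1-ifKO libraries were separated by less than 1 SD of either group. The log2 fold change of 0.13 (SE 0.05) did not pass (edgeR, Benjamini-Hochberg adjusted p 0.327).

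Slc6a17, the vesicular carrier, was the most abundant of the 6 genes and had a similar small difference. It lies on chromosome 3 at 107467543 to 107518018 (minus strand), with 12 exons and 6322 nt. Counts were 3773, 5257 and 5220 in WT and 5263, 6248 and 7281 in DICER1-ifKO, or 321, 331 and 321 against 342, 347 and 356 CPM. The groups did not overlap, at 324 ± 5.66 and 348 ± 6.99 CPM (SD, n = 3 each). The log2 fold change of 0.10 (SE 0.04) did not pass (edgeR, Benjamini-Hochberg adjusted p 0.398). Slc6a6 and Slc6a17 have the longest transcripts of the group. With each library's trend over transcript length and GC content removed, their log2 fold changes were 0.08 and 0.03, and that of Slc6a7 was 0.39.

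The ends of Slc6a17 were not covered alike in every library. Slc6a17-010, a model of the 3′ end, held 23.4%, 19.1% and 21.1% of the representative count in WT and 19.0%, 18.4% and 19.3% in DICER1-ifKO. Slc6a17-005, a model of the 5′ part, held 10.4%, 14.6% and 13.7% in WT and 12.8%, 12.9% and 12.1% in DICER1-ifKO. WT replicate 1, the shallowest library, thus had the highest 3′ and the lowest 5′ share. The part of this in the genotype difference was not tested. Of 10 transcripts of Slc6a17, 0 passed by edgeR or DESeq2 and 0 had an unadjusted p below 0.05. Log2 fold changes were positive in 7 and negative in 3, from -0.07 to 0.12. The groups did not overlap in 3, beside 15.2% of all transcripts. Those 3 were Slc6a17-001 and Slc6a17-002, with the same counts, and Slc6a17-003, with nearly the same, so they are not separate measurements.

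Slc6a9, the glycine transporter GLYT1, did not differ detectably. It lies on chromosome 4 at 117835333 to 117875196 (plus strand). Counts of Slc6a9-002, its transcript with the most reads (15 exons, 2834 nt), were 633, 819 and 853 in WT and 848, 926 and 1068 in DICER1-ifKO. In CPM these were 53.9, 51.6 and 52.5 against 55.1, 51.4 and 52.2, so the ranges lay over each other. The mean was 52.6 ± 1.18 in WT and 52.9 ± 1.93 CPM in DICER1-ifKO (SD, n = 3 each), and the log2 fold change 0.01 ± 0.06 (SE; edgeR, Benjamini-Hochberg adjusted p 0.983).

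This Slc6a9 transcript is annotated as a target of nonsense-mediated decay, and its exons share 801 bases with Ccdc24 and 477 with Gm17114, both on the opposite strand. The strand setting of the counting is not given in the sources used here, so reads of the overlapping genes cannot be told apart. Gm8841 and Pde6a, on opposite strands, had nearly the same counts, so the Slc6a9 counts may include reads of the opposite strand. The coding transcript Slc6a9-001 had 365, 464 and 482 counts in WT and 481, 544 and 637 in DICER1-ifKO, and shares 1429 bases with Ccdc24. Used in place of Slc6a9-002, it had a log2 fold change of 0.04 ± 0.07 (SE; edgeR, Benjamini-Hochberg adjusted p 0.866). The ratio of Slc6a9-002 to Slc6a9-001 ran from 1.68 to 1.77 over the 6 libraries. Of 12 Slc6a9 transcripts, 0 passed by edgeR or DESeq2, 1 had an unadjusted p below 0.05 and 0 had groups that did not overlap. That 1 was Slc6a9-012, a retained-intron model with 36, 57 and 58 counts in WT and 51, 33 and 49 in DICER1-ifKO (log2 fold change -0.48, SE 0.21). None of the other 5 representative transcripts shares exon bases with another gene.

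Slc6a15, the neuronal carrier of branched-chain amino acids and proline, was the only one of the 6 with a negative value. It lies on chromosome 10 at 103367808 to 103419378 (plus strand), with 12 exons and 3543 nt. Counts were 728, 919 and 1052 in WT and 930, 1186 and 1157 in DICER1-ifKO, or 62.0, 57.8 and 64.7 against 60.4, 65.8 and 56.5 CPM. The highest and the lowest of all 6 libraries were both DICER1-ifKO, so the groups overlapped. The mean was 61.5 ± 3.45 in WT and 60.9 ± 4.69 CPM in DICER1-ifKO (SD, n = 3 each), and the log2 fold change -0.02 ± 0.06 (SE; edgeR, Benjamini-Hochberg adjusted p 0.961). The sign of Slc6a9 and of Slc6a15 turned with some libraries left out, so neither has a direction here.

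**Figure D3:**
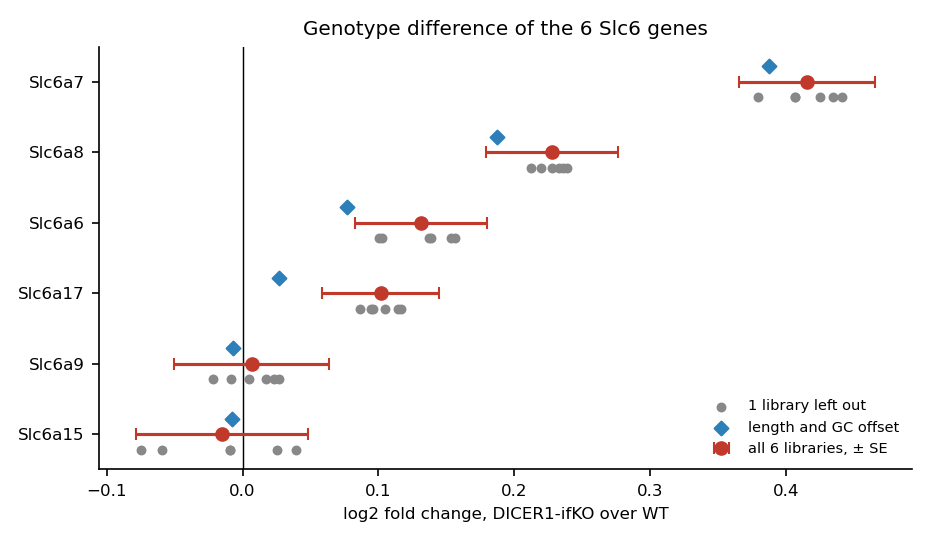
Log2 fold change of DICER1-ifKO over WT (horizontal axis) for the 6 Slc6 genes, with red points and bars for all 6 libraries ± SE, grey points for fits with 1 library left out and blue diamonds for the fit with a length and GC offset. Slc6a7 stays between 0.38 and 0.44, while the grey points of Slc6a9 and Slc6a15 fall on both sides of 0.

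**Figure D4:**
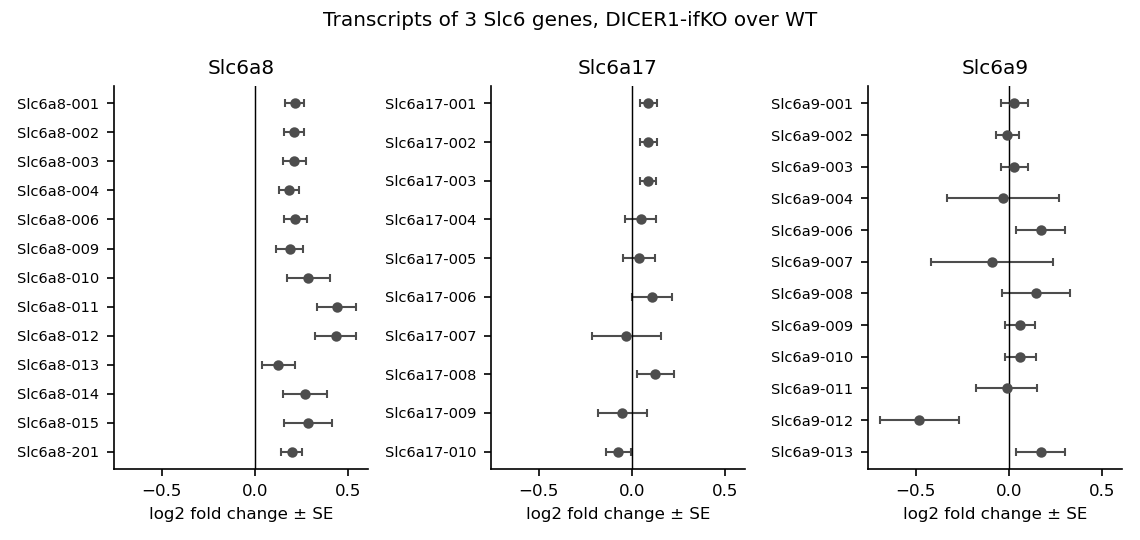
Log2 fold change ± SE (horizontal axes) of each tested transcript of Slc6a8, Slc6a17 and Slc6a9 in the fit over all transcripts. All 13 Slc6a8 transcripts lie right of 0, with Slc6a8-011 (0.44) and Slc6a8-012 (0.43) farthest, while Slc6a17 and Slc6a9 have transcripts on both sides.

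Per kilobase of transcript, the order of mean levels was the same in both genotypes. In WT, Slc6a17 had 51.3 CPM per kb (range 50.8 to 52.3), Slc6a7 had 25.8 (25.4 to 26.5), Slc6a6 had 23.1 (22.05 to 23.94) and Slc6a8 had 20.6 (20.4 to 20.8). Slc6a9 (18.2 to 19.0) and Slc6a15 (16.3 to 18.3) came last, and of all neighbours in this order only their ranges overlapped. In DICER1-ifKO the means were 55.1 for Slc6a17, 34.4 for Slc6a7, 25.4 for Slc6a6 and 24.1 for Slc6a8. There the ranges of Slc6a6 (24.55 to 26.36) and Slc6a8 (23.74 to 24.63) overlapped too, as did those of Slc6a9 (18.1 to 19.4) and Slc6a15 (15.9 to 18.6). The gap between Slc6a7 and Slc6a6 was thus wider in DICER1-ifKO than in WT. With the coding Slc6a9-001 the WT level of Slc6a9 would be 8.61 CPM per kb, the lowest of the 6.

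The genes whose log2 CPM over the 6 libraries ran closest to that of Slc6a7, by root mean square difference after centring each gene, were Hspb7 (0.0389), Traf3 (0.041), Gm17201 (0.0435), G430095P16Rik (0.0436) and Ankrd52 (0.0542). A gene close to Slc6a7 by this measure has a similar genotype difference in the same libraries, so passing the test is no separate result. Of the 5 genes, Traf3 (log2 fold change 0.34, SE 0.05), Gm17201 (0.45, SE 0.06) and Ankrd52 (0.32, SE 0.05) passed the edgeR test. Hspb7 had about 3 CPM in WT and did not (0.51, SE 0.16). Among the 6 genes themselves, Slc6a6 and Slc6a17 ran closest (0.0492) and Slc6a7 and Slc6a15 farthest apart (0.238).

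The 3′ UTRs of the 6 genes were searched for 7-base matches to the seeds (bases 2 to 8) of 12 microRNAs of the adult brain, on the transcript strand. Sequences are from GENCODE M21 transcripts (GRCm38) and, for microRNAs, RefSeq. The seed of miR-137-3p, a neuronal microRNA, had a match in 5 of the 6 genes, all but Slc6a7. It was singled out after the search, as the seed of the 12 that matched the most genes. Its site AGCAATA occurs in 8.42% of 17002 coding 3′ UTRs of at least 50 nt. The median length of those UTRs was 823 nt, while Slc6a6 has 4009 nt and Slc6a17 has 3638 nt, with more room for a match. The microRNA with its seed in capitals, and the 5 sites with the match in capitals, are shown 5′ to 3′ to let the matches be seen.
mmu-miR-137-3p: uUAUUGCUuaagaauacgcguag
Slc6a8, chrX:73682465-73682491, plus strand: ctgcaaacatAGCAATAaaaacacttc
Slc6a9, chr4:117869200-117869226, plus strand: aatcctctgtAGCAATAacggtgtgcc
Slc6a15, chr10:103418934-103418960, plus strand: agccgcatagAGCAATAgtatcaaagg
Slc6a6, chr6:91757670-91757696, plus strand: tggaacacagAGCAATAcccacgtgtg
Slc6a17, chr3:107468058-107468084, minus strand: tctgccatcaAGCAATAcatcgtcagg

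In Slc6a8 and Slc6a9 (coding transcript) the match is followed by A, which makes it an 8-mer, and in Slc6a8 it overlaps the letters AATAAA of the polyadenylation signal motif near the transcript's end. The 5 genes with this match had log2 fold changes of -0.02 to 0.23, none past the test. Slc6a7 has a 3′ UTR of 1239 nt with 1 match among the 12 seeds, to miR-9-5p at bases 260 to 266. The site ACCAAAG of miR-9-5p occurs in 11.3% of the UTRs and, of the other 5 genes, in Slc6a6 alone, with 2 matches.
mmu-miR-9-5p: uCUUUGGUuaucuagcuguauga

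Slc6a8 also matched let-7c-5p (8.25% of UTRs) and miR-138-5p (11.3%), and these sites are shown because Slc6a8 had the largest difference after Slc6a7.
mmu-let-7c-5p: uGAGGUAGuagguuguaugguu
Slc6a8, chrX:73681354-73681380, plus strand: cttccaggccCTACCTCctctccttct
mmu-miR-138-5p: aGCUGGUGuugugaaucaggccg
Slc6a8, chrX:73681111-73681137, plus strand: cagctcacatCACCAGCtcatcctttg

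The longest UTRs held the most matches. Slc6a6 (4009 nt) had 8 matches to 5 seeds and Slc6a17 (3638 nt) had 7 to 5, while Slc6a8 (1402 nt) had 3, Slc6a9 (1063 nt) had 2 and Slc6a15 (981 nt) had 1. The median over all 17002 UTRs was 1 seed matched in 823 nt, and 60.7% had a match to any. None of the 6 genes matched miR-29a-3p, miR-26a-5p or miR-132-3p. A match is a description of the letters and not evidence of binding.

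Genes that make, use or carry the same solutes, the rest of the Slc6 family and vesicular transmitter carriers were counted beside the 6 genes. Of 81 listed genes 68 were tested by edgeR. There 0 passed, 5 had an unadjusted p below 0.05, and 10.4% of all genes did. DESeq2 also called 0, but it gave no adjusted p to many of these genes and could not call those. Log2 fold changes were positive in 32 and negative in 36, with a median of 0.00 (-0.0042), and 12 had groups that did not overlap, a share near the 16.1% over all genes.

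Of 12 tested genes of proline synthesis, breakdown and use, none passed by edgeR and 1 had an unadjusted p below 0.05. DESeq2 gave an adjusted p to 3 of them and called none. Log2 fold changes were positive in 4 and negative in 8 of the 12, with a median of -0.03. P4ha2, a collagen prolyl hydroxylase subunit, had a log2 fold change of 0.20 (SE 0.11). Prodh, the enzyme that begins proline breakdown, was named for its role after its value was seen and had 0.04 (SE 0.07). The other 4 tested proline carriers were all positive, with a median of 0.07, and 2 had groups that did not overlap. Slc36a1, a lysosomal proton-coupled amino acid transporter, had 0.23 (SE 0.07, adjusted p 0.206 in edgeR) and its relative Slc36a4 had 0.11 (SE 0.06).

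No gene among the partners of the creatine and taurine carriers passed by edgeR, and 0 had an unadjusted p below 0.05. DESeq2 called none, but it gave an adjusted p to only 3 of the 7 creatine genes and 0 of the 7 taurine genes. Of 7 genes of creatine synthesis, creatine kinase and creatine efflux, 2 were positive and 5 negative (median -0.02, but 0.04 without DICER1-ifKO replicate 2). Slc16a12, a creatine exporter at low counts, had 0.45 (SE 0.26) and Gamt, the last enzyme of creatine synthesis, had -0.22 (SE 0.13). Of 7 genes of taurine synthesis, 1 was positive and 6 negative (median -0.06, but 0.01 without WT replicate 3). Ado, which oxidises cysteamine, had 0.13 (SE 0.07) and Cbs, of the pathway to cysteine, had -0.10 (SE 0.07).

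Glycine genes included enzymes, receptor subunits and a carrier, and of 12 tested 5 were positive and 7 negative (median -0.04). Shmt2, the mitochondrial enzyme that makes glycine from serine, had 19.6, 16.6 and 16.6 CPM in WT and lower values in all DICER1-ifKO libraries (log2 fold change -0.30, SE 0.09, adjusted p 0.218 in edgeR). Dld, a subunit of the glycine cleavage system among other complexes, had -0.11 (SE 0.05). Neutral amino acid carriers and branched-chain enzymes, 12 tested, had 8 positive and 4 negative values (median 0.04). Among them Slc43a2 had 0.14 (SE 0.06), and Slc7a5, the large neutral amino acid transporter of the blood-brain barrier, had -0.11 (SE 0.08). Vesicular transmitter carriers, 6 tested, had 4 positive and 2 negative values (median 0.03), with Slc18a2 at -0.23 (SE 0.14) and Slc17a6 at 0.16 (SE 0.16).

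Other carriers of the Slc6 family showed no difference that passed. The GABA and betaine carriers, 4 tested, had 2 positive and 2 negative values (median 0.00, or -0.0011), with Slc6a11 (GAT3) at 0.06 (SE 0.05). Of 11 further family members on the list 4 were tested. Slc6a5, the neuronal glycine transporter GLYT2, had 11, 18 and 23 counts in WT and 25, 29 and 36 in DICER1-ifKO (log2 fold change 0.50, SE 0.26). Slc6a20b had 0.23 (SE 0.21). The monoamine carriers Slc6a2, Slc6a3 and Slc6a4, with Slc6a14 and Slc6a19, had 2 to 40 counts over all 6 libraries and were not tested.

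**Figure D5:**
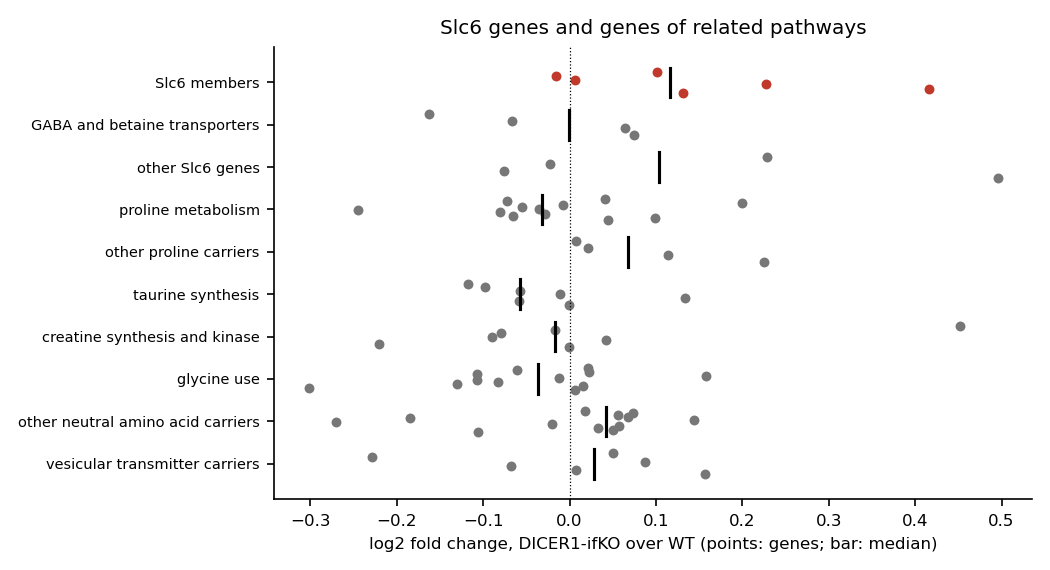
Log2 fold change of DICER1-ifKO over WT (horizontal axis) for the 6 Slc6 genes in red and for the tested genes of 9 related lists in grey, each point a gene and each bar the median of its list. The bar of the 6 genes is at 0.12 and those of the related lists lie between -0.06 and 0.10.

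Markers of the cell types in hippocampal tissue were summed in each library. Of 10 markers of pyramidal neurons, which are among the excitatory neurons in which the recombinase is active, 0 passed by edgeR. DESeq2 called 0 of the 7 to which it gave an adjusted p. Of the 10 markers 2 had an unadjusted p below 0.05. Their summed level was 5330 to 5471 CPM in WT and 5454 to 5838 in DICER1-ifKO, and without Camk2a 2011 to 2161 and 1957 to 2126. Of 9 dentate granule cell markers 1 passed, Calb1, a calcium-binding protein gene, which fell by 0.27 (SE 0.05) on the log2 scale (edgeR, adjusted p 0.0323). Plk5 of the same list was higher in each DICER1-ifKO library (log2 fold change 0.31 ± 0.08, SE) and was called, as was Calb1, with no filter on low counts. The summed dentate ranges overlapped (458 to 492 and 426 to 464 CPM).

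Astrocytes, a main site of Slc6a9 and Slc6a11, had summed markers of 3509 to 3686 CPM in WT and 3721 to 3869 in DICER1-ifKO, without overlap. Of the 10 markers 0 passed by edgeR, 3 had an unadjusted p below 0.05, and the median log2 fold change was 0.00 (-0.0022). DESeq2 called 0 of the 8 to which it gave an adjusted p. The sum turned on Slc1a2, the glial glutamate transporter gene (0.14, SE 0.05). Without it the sums were 1656 to 1709 and 1651 to 1671 CPM, which overlapped, and Aqp4, the aquaporin gene of astrocyte endfeet, was lower in each DICER1-ifKO library (-0.16, SE 0.05). Microglia had 464 to 495 and 459 to 462 CPM, without overlap. Choroid plexus and meninges had 91.1 to 93.0 and 79.7 to 88.3 CPM. That separation turned on Ttr, the transthyretin gene, at 11.5, 9.57 and 21.95 CPM in WT and 14.5, 18.4 and 2.30 in DICER1-ifKO. Without Ttr the sums overlapped, at 71.1 to 81.5 and 69.8 to 77.4 CPM. Interneuron, oligodendrocyte, oligodendrocyte precursor, endothelial, thalamic and striatal, and erythrocyte sums overlapped. The filter on low counts kept 7 of 10 listed choroid plexus and meningeal markers, and no marker it kept could be at 0 in all libraries. The part of these differences in the levels of the Slc6 genes was not tested.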

How the data were processed

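Polyadenylated hippocampal RNA of 3 WT and 3 DICER1-ifKO libraries was sequenced from a stranded kit, per the labels' protocols. Design text gives 12 mice per genotype; these pools hold 3 each. The tools in the submitters' processing notes are TopHat2 2.0.6 and Bowtie2 2.0.5, CASAVA 1.8.2, DESeq2 and SAMtools 0.1.18, and the builds mm10 and GRCm38. What counted the reads, on which annotation release and with which strand setting, is not given in the sources used here. Per the file headers the deposited values include a raw count, a whole number of reads for each transcript. Reads in shared exons were counted for each transcript, so 1 transcript per symbol (highest mean count) was used. The authors' deposited normalised values (a signal) are that count over a library factor of 0.72 to 1.28 and were not tested.

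The members, lists and microRNA seeds were chosen with earlier results of these data known. Counts were fitted in R 4.3.3 by edgeR 4.0.16 (TMM, quasi-likelihood, filterByExpr with its minimum count of 10, prior count 0.125, no term but the group). The Benjamini-Hochberg adjustment ran over 17405 genes, and SE is the fold change over the root of F. DESeq2 1.42.0 was an alternative, and gave an adjusted p to 4920 genes. A gene or transcript without one could not be called by it. The common biological coefficient of variation was 0.0464. In 3 simulations of this comparison over 17405 genes, edgeR called 58% of the genes simulated at a 1.25-fold change. It called 88.7% of those at 1.5-fold, 94% of those at 2-fold and 97.3% of those at 4-fold. Every simulated gene had the common coefficient of variation, with no spread between genes, so recovery in the real data can differ. The libraries have no other stated batch.

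Named genes were the 6 members, their transcripts with a mean count of at least 50 (all Slc6a7 transcripts, of which there is 1), neighbours of Slc6a7 that were adjacent or called, the 2 smallest p in each related list, the 5 nearest profiles (mean log2 CPM of at least 1, pseudocount 0.5), Dicer1, Esr1 and Camk2a; any other gene named was chosen after its values were seen. Not every gene under this rule is reported here. Transcript lengths, types and UTRs came from GENCODE M21, which matched 93.4% of symbols.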

Additional observations from a re-analysis of the deposited data

How the results depend on the processing

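Slc6a7 passed the test in all 13 alternatives tried, with log2 fold changes of 0.38 to 0.44 and adjusted p of 1.17e-08 to 0.0355, and in all 10 of the fit over transcripts. Of the 13, the use of Slc6a9-001 replaced only the counts of Slc6a9, so it is no real check of the other genes. The count of genes called was 28; it was 55 with DESeq2, 151 with no filter on low counts, 7 with counts summed over transcripts, and 6 to 105 with 1 library left out (6 without DICER1-ifKO replicate 1, 14 without WT replicate 3, 18 without WT replicate 1 or DICER1-ifKO replicate 2, 105 without WT replicate 2). Slc6a8 passed with DESeq2 (0.23, adjusted p 0.0195) and with no filter (0.23, adjusted p 0.0164), and lay at 0.21 to 0.24 with 1 library left out (adjusted p 0.0635 to 0.383). Slc6a9 was negative with the length and GC offset (-0.0074) and ranged from -0.0219 to 0.0265 with 1 library left out. Slc6a15 ranged from -0.0751 to 0.0397 with 1 library left out. Slc6a6 and Slc6a17 kept their sign and did not pass in any of 13 alternatives. The causes were not tested. The sum over transcripts, the offset, the use of Slc6a9-001 and marker sums without Camk2a, Slc1a2 or Ttr were chosen after seeing the data.

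Same-numbered libraries did not deviate together (correlations of -0.0641, 0.145 and -0.13 over 12259 genes), so the numbers were not taken as pairs. With the replicate block 22 genes were called, Slc6a7 had 0.42 (adjusted p 0.00108) and Slc6a8 0.23 (adjusted p 0.103). The differences of Slc6a8, Slc6a6, Slc6a17, Slc6a9 and Slc6a15 were smaller than the smallest fold simulated, so the simulations give no recovery for them.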
